A study of Mus musculus with 4 samples.

Results

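Clustered protocadherins are cell-surface adhesion molecules of the cadherin superfamily, encoded in the mouse by 3 neighbouring gene clusters, alpha, beta and gamma, on chromosome 18. Members were all symbols of the deposited expression table that start with Pcdha, Pcdhb or Pcdhg. The rule found 22 of 9997 symbols, Pcdhb1 to Pcdhb22, which is the whole beta cluster; it found 0 symbols of the alpha cluster and 0 of the gamma cluster, and those clusters were not analysed here.

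In neurons, each cell switches on its own small set of clustered protocadherins from alternative promoters. The proteins bind identical partners on opposing membranes, and the combination lets a neuron tell its own branches from those of other neurons. Promoter choice is known to depend on CTCF, on the cohesin ring that folds the clusters, and on DNA methylation set early in development. In mice, olfactory axons need the clusters to sort into separate target zones. Alpha and gamma genes each join a variable first exon to constant exons that all genes of the cluster share. A beta gene encodes the whole protein in a single large exon and has no constant part.

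RNA was sequenced from embryoid bodies of ES-E14TG2a, a mouse embryonic stem cell line. Embryoid bodies are floating clumps in which stem cells begin to differentiate. There were 4 libraries, 1 per group: control embryoid bodies, and embryoid bodies with all-trans retinoic acid (ATRA) labelled 0, 6 and 10 days. ATRA, an active form of vitamin A used to steer such cells towards neurons, was added to the suspension culture at 5 µM on its 4th and 6th day. After 8 days in suspension the clumps were plated on poly-DL-ornithine and laminin. All groups come from the same cell line and embryoid body medium. The labels give neither the culture day of the control nor the side of the transfer on which each library lies, so ATRA, culture age and culture format cannot be told apart. With 1 library per group there was no replicate check, and no test, p-value or SD is given for any difference below.

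Levels are FPKM, which scales fragments by transcript length and by the mapped fragments of the library. Estimated depths ran from 24500000 fragments in the control to 27300000 in the 10-day library. The estimate took values from a fixed window, which bounds the depths it can give, so their closeness is not independent evidence. Pluripotent cell markers were highest in the control for all 6 of 6 in the table, led by Pou5f1 (Oct4) at 1241 FPKM in the control and 97.4, 150.0 and 141 FPKM at 0, 6 and 10 days.

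The beta members lay very low in every library. Of the 22 members, 0 reached 0.5 FPKM in the control library, 1 in the 0-day, 3 in the 6-day and 1 in the 10-day library. Among all 9997 symbols the shares at that level were 53.5%, 56.8%, 58.3% and 58.1% in the same order. The median member stood at 0.0112 FPKM in the control, 0.0674 FPKM at 0 days, 0.156 FPKM at 6 days and 0.0455 FPKM at 10 days. In the same order, 9, 3, 0 and 4 members were listed at 0. The 6-day library was the only library of the 4 in which all 22 members had a value above 0. It held 15 members at 0.1 FPKM or more, where the control held 0, the 0-day library 7 and the 10-day library 5.

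These values rest on few fragments. With the RefSeq length of each gene, the 72 values above 0 were turned into estimated fragments. Of the 33 values below 5.5 fragments, 25 lay within 0.1 of a whole number, or 75.8%, where 20.0% would do so if values were spread evenly; 15 of them lay within 0.1 of a single fragment. The lowest values are thus close to what 1, 2 or 3 fragments give. Fewer than 3 estimated fragments were behind 18 members in the control library, 10 in the 0-day library, 5 in the 6-day library and 8 in the 10-day library. These counts use unrounded estimates, so a value such as 2.94 for Pcdhb4 at 0 days, which is close to 3 whole fragments, falls under 3. At the median length of 3418 bases, 3 fragments correspond to 0.0358 FPKM in the control, 0.0333 at 0 days, 0.0348 in the 6-day library and 0.0322 in the 10-day library.

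**Figure D1:**
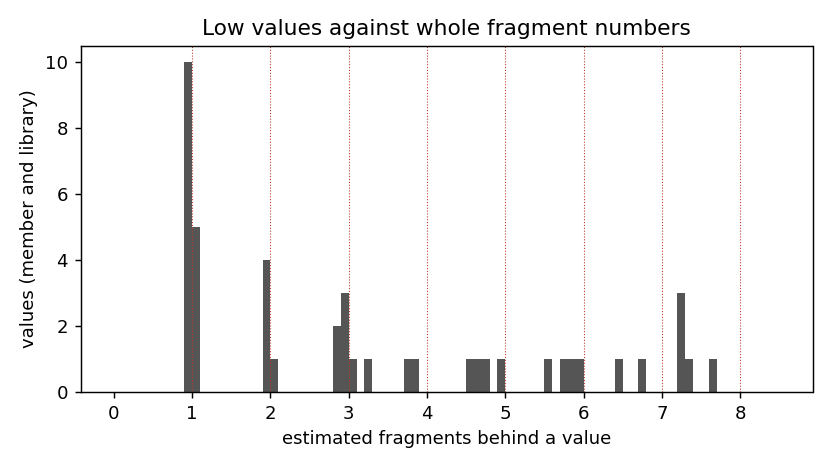
Histogram of the estimated fragments behind each value above 0 and below 8.5 fragments (22 members, 4 libraries; bins of 0.1 fragment; dotted lines mark whole numbers). Values pile up at 1, 2 and 3 fragments, with 15 values within 0.1 of 1.

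Shared sequence sets a further limit. In the GENCODE M21 annotation of mm10, all 14 alpha genes hold at least 1 exon with identical coordinates in all 14, and all 22 gamma genes hold at least 1 exon common to all 22. No exon of the 22 beta genes has identical coordinates in another beta gene, so no read of a constant exon had to be divided among them. The beta genes are related copies, and exact stretches of 50 bases found in another member made up 0% (Pcdhb1) to 12.0% (Pcdhb12) of a member's transcript, with a median of 4.26%. Exons of Pcdhb21 and Pcdhb22 overlap by 455 bases in GENCODE. Of the 50-base stretches of Pcdhb22, 6.74% also occur in Pcdhb21, and of those of Pcdhb21, 9.49% occur in Pcdhb22. The way such reads were divided by the authors' tools is not stated in the labels or headers.

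**Figure D2:**
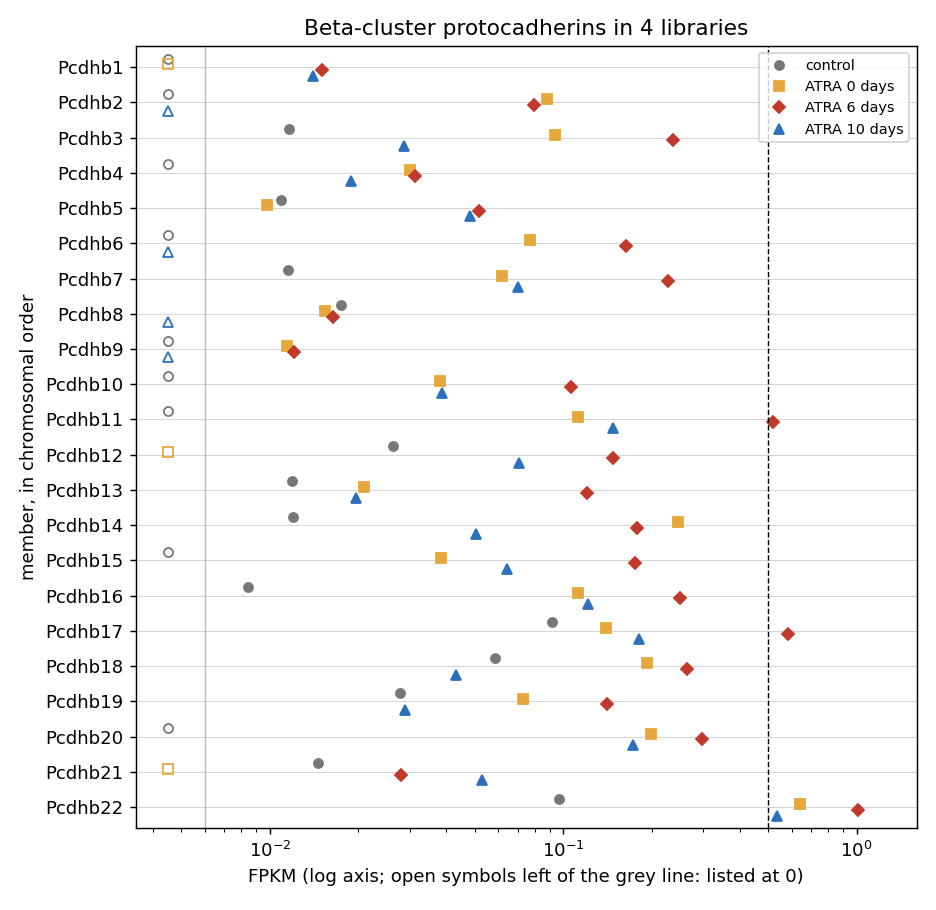
FPKM of each of the 22 members (rows, in chromosomal order) in the 4 libraries (symbols; log axis; dashed line at 0.5 FPKM; open symbols left of the grey line are values listed at 0). The 6-day value is the highest for 18 of 22 members, and 3 members pass 0.5 FPKM at 6 days.

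Summed over the 22 members, the level was 0.399 FPKM in the control, 2.20 FPKM at 0 days, 4.66 FPKM at 6 days and 1.71 FPKM at 10 days. These sums correspond to about 35, 208, 416 and 160 estimated fragments. Exact 95% Poisson intervals on those fragments, which cover counting error only, put the sums at 0.278 to 0.556 FPKM, 1.91 to 2.52 FPKM, 4.22 to 5.13 FPKM and 1.45 to 1.99 FPKM in the same order. The control interval and the 6-day interval overlap no other, while those of the 0-day and 10-day libraries overlap each other. The 6-day sum was 11.7 times the control sum and 2.11 times the 0-day sum, and the 10-day sum was 0.367 times the 6-day sum. In bulk RNA, fewer cells that express these genes and less RNA per cell cannot be told apart.

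**Figure D3:**
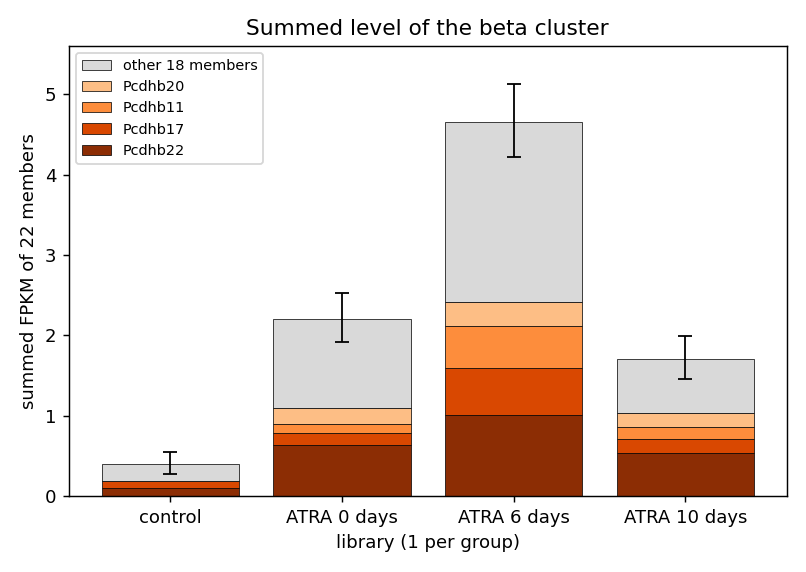
Summed FPKM of the 22 beta members in each library (stacked bars: the 4 members with the highest means and the other 18 together; error bars: 95% Poisson interval of the summed estimated fragments, counting error only). The sum is 4.66 FPKM at 6 days, against 0.399, 2.20 and 1.71 FPKM in the control, 0-day and 10-day libraries.

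A few members carried most of the signal. In order of mean FPKM over the 4 libraries, Pcdhb22 held 25.5% of the summed mean, Pcdhb17 11.1%, Pcdhb11 8.70% and Pcdhb20 7.46%, which together make 52.7%. Pcdhb22 was the highest member in each of the 4 libraries and held 24.3%, 29.2%, 21.7% and 31.3% of the sum in the control and at 0, 6 and 10 days. The ranking of members depends on the annotated length: Pcdhb22 spans 3067 bases in RefSeq and up to 6609 in GENCODE, and Pcdhb14 3438 and 8695 bases, while the ratio of a member between libraries does not use the length. Without Pcdhb22 the 6-day sum was 12.1 times the control sum and the 10-day sum 0.321 times the 6-day sum. The 18 members outside these 4 summed to 0.211 FPKM in the control, 1.11 FPKM at 0 days, 2.25 FPKM at 6 days and 0.670 FPKM at 10 days, which is the same order of libraries as in the full sum. In the control and at 0 days these 18 held slightly more of the sum than the 4.

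Pcdhb22 (ENSMUSG00000073591.4, mm10 chromosome 18, 37517871 to 37524479, plus strand) lies at the gamma-facing end of the cluster. It stood at 0.0969 FPKM in the control, 0.643 FPKM at 0 days, 1.01 FPKM at 6 days and 0.534 FPKM at 10 days, from about 7, 52, 78 and 45 estimated fragments. It was the only member to reach 1 FPKM, and the only member at or above 0.5 FPKM at 0 and at 10 days. Its 0-day level was 6.63 times the control level, its 6-day level 1.57 times the 0-day level, and its 10-day level 0.530 times the 6-day level.

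Pcdhb17 (ENSMUSG00000046387.5, chromosome 18, 37484795 to 37489454) stood at 0.0913 FPKM in the control, 0.140 FPKM at 0 days, 0.585 FPKM at 6 days and 0.181 FPKM at 10 days. Here the control and 0-day values lay close together, on about 7 and 12 fragments, and the 6-day value was 4.19 times the 0-day value. Pcdhb11 (ENSMUSG00000051486.5, 37421418 to 37425836) was listed at 0 in the control and stood at 0.112 FPKM at 0 days, 0.520 FPKM at 6 days and 0.148 FPKM at 10 days. Its 6-day level was 4.63 times the 0-day level. Pcdhb20 (ENSMUSG00000046191.7, 37504264 to 37507822) was listed at 0 in the control as well, and its ATRA libraries differed less, with 0.199 FPKM at 0 days, 0.297 FPKM at 6 days and 0.173 FPKM at 10 days.

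The other members had their highest values between 0.0121 FPKM, in Pcdhb9, and 0.265 FPKM, in Pcdhb18. Of all 22 members 18 (81.8%) were highest at 6 days. Among all 8786 symbols above 0 in some library 15.4% were highest at 6 days, and among the 2873 symbols whose highest value lay in the range of the members it was 27.1%. The exceptions were Pcdhb8, highest in the control at 0.0175 FPKM or about 1 fragment, Pcdhb21, highest at 10 days at 0.0527 FPKM or about 4 fragments, and Pcdhb14 and Pcdhb2, highest at 0 days. Pcdhb14 stood at 0.0119 FPKM in the control, 0.246 FPKM at 0 days, 0.178 FPKM at 6 days and 0.0506 FPKM at 10 days. Pcdhb2 was listed at 0 in the control and at 10 days, and stood at 0.0880 FPKM at 0 days and 0.0795 FPKM at 6 days, on about 6 fragments each.

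Member by member, differences were taken on log2(FPKM + 0.1), a scale that understates the change of genes at these levels, and called at 2-fold or more. Among symbols at 0.5 FPKM or more in some library only Pcdhb11, Pcdhb17 and Pcdhb22 entered of the 22. Pcdhb11 and Pcdhb17 passed that filter only through their 6-day values, while Pcdhb22 reached it at 0 and 10 days as well. At 0 days against the control, 2 of these 3, Pcdhb11 and Pcdhb22, were called higher, where 20.1% of the 6346 symbols that entered were. At 6 days against 0 days Pcdhb11 and Pcdhb17 were called higher (13.3% of symbols that entered), and at 10 days against 6 days the same pair was called lower (3.67%). Against the control, all 3 were called higher at 6 days (22.7% of symbols that entered), and Pcdhb11 and Pcdhb22 at 10 days (26.4%). Because Pcdhb11 and Pcdhb17 passed only through their 6-day values, and only 3 members entered, the counts are a description only.

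Without the filter all 22 members entered, beside 8786 symbols in all. At 0 days against the control 4 members (18.2%) were called higher, Pcdhb11, Pcdhb14, Pcdhb20 and Pcdhb22, close to the 16.6% of all symbols, and 0 were called lower, against 13.0% of all symbols. At 6 days against 0 days 4 members (18.2%) were called higher, Pcdhb7, Pcdhb11, Pcdhb12 and Pcdhb17, against 11.4% of all symbols. At 10 days against 6 days 5 members (22.7%) were called lower, Pcdhb3, Pcdhb6, Pcdhb11, Pcdhb17 and Pcdhb18, against 3.77% of all symbols. At 6 days against the control 12 members (54.5%) were called higher, against 19.3% of all symbols; these were Pcdhb3, Pcdhb6, Pcdhb7, Pcdhb10, Pcdhb11, Pcdhb14 to Pcdhb18, Pcdhb20 and Pcdhb22. At 10 days against the control 4 members (18.2%) were called higher, which is below the 21.9% of all symbols. The median log2 difference of the members was 0.47 for 0 days against the control, 0.53 for 6 against 0 days, -0.78 for 10 against 6 days, 1.12 for 6 days against the control and 0.42 for 10 days against the control, and the median over all 8786 symbols was 0.00 in each.

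By direction alone, at any size, 21 of 22 members (95.5%) were higher at 6 days than in the control, against 51.0% of the 2873 symbols in the members' range. The exception was Pcdhb8, at 0.0165 FPKM at 6 days and 0.0175 FPKM in the control, which is about 1 fragment in each. A total of 20 members (90.9%) were higher at 6 days than at 0 days (48.9% of symbols in that range), and 21 (95.5%) were lower at 10 days than at 6 days (49.4% of symbols in that range). At 0 days 17 members (77.3%) were higher than in the control and 4 were lower, against 48.1% and 37.6% of symbols in that range. The steps share libraries, so their counts are not independent.

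The levels were not even along the cluster. The 12 members from Pcdhb11 to Pcdhb22 held 87.1% of the summed FPKM in the control library and 80.7%, 79.8% and 87.2% in the 0-, 6- and 10-day libraries. Among the 10 members from Pcdhb1 to Pcdhb10 the highest value in any library was 0.236 FPKM, in Pcdhb3 at 6 days. Across the 22 members, Spearman's rho between position and FPKM was 0.54 in the control library and 0.41, 0.50 and 0.66 in the 0-, 6- and 10-day libraries. Members are not independent points, since they share libraries and related sequence, and the division after Pcdhb10 was chosen after the values were seen. Pcdhb21 stood apart from its neighbours Pcdhb20 and Pcdhb22, which were both among the 4 highest members. It was listed at 0 at 0 days and stood at 0.0146 FPKM in the control, 0.0279 FPKM at 6 days and 0.0527 FPKM at 10 days. Its exons overlap those of Pcdhb22 by 455 bases, and the part of read division in its low values was not tested.

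**Figure D4:**
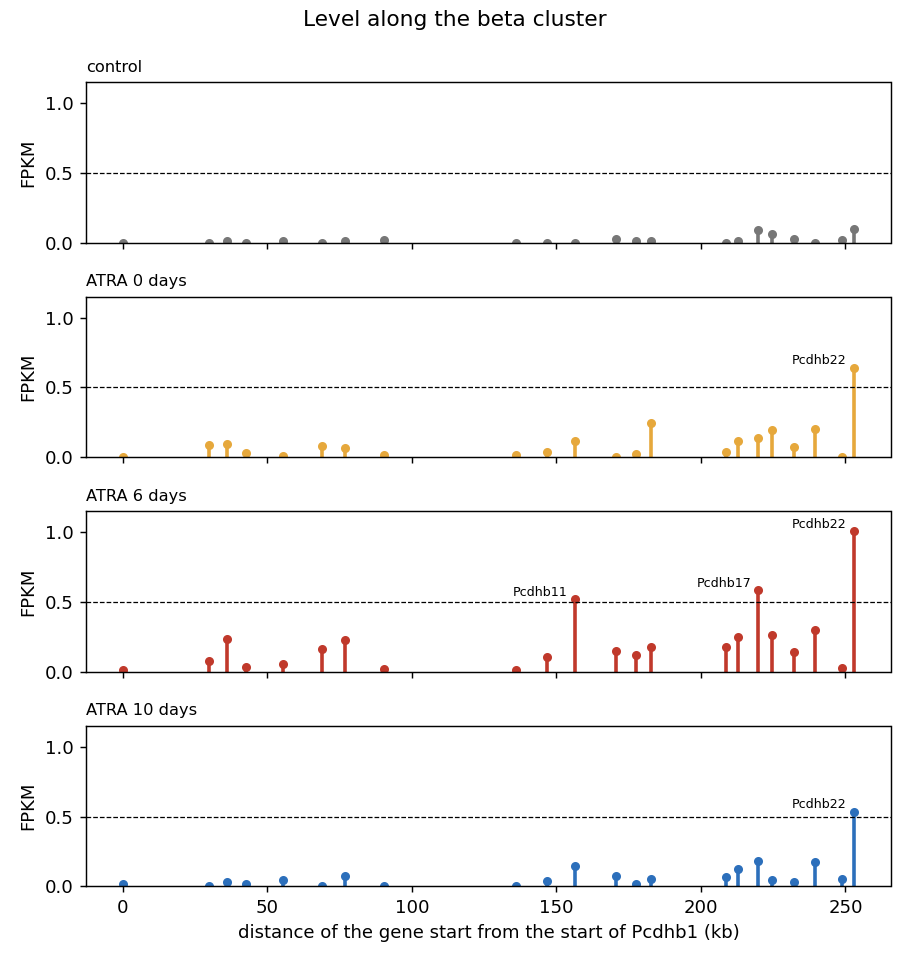
FPKM of the 22 members against the distance of each gene start from that of Pcdhb1 in kilobases, 1 panel per library (dashed line at 0.5 FPKM; members at or above it are named). The 12 members from Pcdhb11 onwards hold 79.8% of the summed FPKM at 6 days, when Pcdhb11, Pcdhb17 and Pcdhb22 lie above the line.

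The order of the members was most alike between the 0-day and 6-day libraries. Spearman's rho over the 22 members was 0.84 for 6 against 0 days, 0.76 for 10 against 6 days and 0.46 for 10 against 0 days. Against the control it was 0.19 at 0 days, 0.32 at 6 days and 0.34 at 10 days, and 18 control values rest on fewer than 3 fragments.

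Genes that flank the clusters were set beside the beta members. Of 16 neighbours listed, 14 were in the table and 13 passed the filter. At 6 days against the control 2 of 13 were called higher, the Arf GTPase regulator Arap3 (1.45 FPKM at 6 days and 0.527 FPKM in the control) and the protocadherin Pcdh1, and 0 were called lower, where 22.7% and 15.9% of symbols that entered were. Of the 14, 1 (Rell2) was highest at 6 days, where 15.4% of all symbols above 0 in some library were. With 14 genes, this count does not set the list apart from that share. Slc25a2, a mitochondrial ornithine carrier whose gene lies between the beta and gamma clusters, stood at 0.299 FPKM in the control and 0.306, 0.291 and 0.543 FPKM at 0, 6 and 10 days. Taf7, a subunit of transcription factor TFIID that lies beside it, was highest in the control, at 48.8 FPKM, and stood at 28.5 FPKM at 6 days.

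Protocadherins outside the clusters were set beside the beta members. Of 12 listed, 7 were in the table, and 5 of the 7 were highest at 6 days. The share was 15.4% among all symbols above 0 in some library and 27.1% among symbols in the range of the beta members. Of those 5 only Pcdh8 reached 0.5 FPKM in any library, and a list of 7 is short. Pcdh8, known for its part in somite formation and at synapses, stood at 0.152 FPKM in the control, 0.918 FPKM at 0 days, 1.29 FPKM at 6 days and 0.462 FPKM at 10 days, which is the same order of libraries as in the beta sum. Pcdh9 was listed at 0 in the control and stood at 0.0968, 0.283 and 0.173 FPKM at 0, 6 and 10 days, and Pcdh17 at 0.0669, 0.135, 0.287 and 0.144 FPKM from the control to 10 days. Pcdh12, a protocadherin of endothelial cells, was listed at 0 in the control and stood at 0.0168, 0.266 and 0.100 FPKM at 0, 6 and 10 days. Pcdh15, of the inner ear, was near its floor throughout, between 0.0199 and 0.0315 FPKM. Pcdh20 was highest at 0 days, at 0.386 FPKM, against 0.0363 FPKM or less in the other libraries. Pcdh1 was the most abundant and was highest at 10 days, with 0.807 FPKM in the control and 4.86, 5.24 and 10.6 FPKM at 0, 6 and 10 days.

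The known regulators of the clusters that were in the table were abundant by comparison. Of 19 listed, 8 were in the table and all 8 passed the filter. Ctcf and Dnmt1 were not among the 8, and Dnmt3l is also on the pluripotent marker list. At 6 days against the control 0 were called higher and 3 lower, against 22.7% and 15.9% of symbols that entered. Rad21, a subunit of the cohesin ring, stood at 82.5 FPKM at 6 days and 196 FPKM in the control. Uhrf1, which recruits the maintenance DNA methyltransferase, stood at 47.1 FPKM at 6 days and 177 FPKM in the control, and Dnmt3l, a cofactor of de novo methylation, at 15.2 FPKM and 202 FPKM. Smchd1, which silences clustered protocadherins in mice, was not called in any of the 5 comparisons, with 15.6 FPKM in the control and 20.3, 18.3 and 13.3 FPKM at 0, 6 and 10 days. Dnmt3a, a de novo DNA methyltransferase, was called higher at 0 days (20.4 FPKM at 0 days and 5.97 FPKM in the control) and lower at 6 days (10.1 FPKM at 6 days and 20.4 FPKM at 0 days). None of the 8 was highest at 6 days, where 15.4% of all symbols above 0 in some library were. A list of 8 is too short to differ clearly from that share.

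Of 18 listed genes for intracellular partners of protocadherins, 10 were in the table and passed the filter. At 6 days against the control 0 were called higher and 1, Wasf1, lower, against 22.7% and 15.9% of symbols that entered. At 6 days against 0 days 1 was called higher and 2 lower, against 13.3% and 8.67% of symbols that entered. Ptk2b, the focal adhesion kinase relative Pyk2, stood at 4.99 FPKM at 6 days and 1.48 FPKM at 0 days. Wasf1 and Cyfip2, members of the WAVE complex that drives actin branching, stood at 8.36 and 2.79 FPKM at 6 days, against 22.7 and 7.65 FPKM at 0 days. None of the 10 was highest at 6 days, again too short a list to differ clearly from the 15.4% of all symbols above 0 in some library.

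Summed neuronal markers shared the 6-day peak of the beta sum, but not its order of the other libraries. Of 12 listed, 7 were in the table, and 6 of the 7 were highest at 6 days, the exception being Nefm, highest at 10 days. The share was 15.4% among all symbols above 0 in some library. The summed level of the 7 was 7.89 FPKM in the control, 9.62 FPKM at 0 days, 70.3 FPKM at 6 days and 34.1 FPKM at 10 days. Nefl alone stood at 39.6 FPKM at 6 days, most of that sum, and at 2.58 FPKM at 0 days. None of the 7 was listed at 0 in any library. Syt1, a synaptic vesicle calcium sensor, stood at 0.0232, 0.130, 0.388 and 0.202 FPKM from the control to 10 days, and Rbfox3 (NeuN), a splicing factor of mature neurons, at 0.0962, 0.0761, 0.572 and 0.162 FPKM. The beta sum differed from the neuronal sum at 0 days, where it was at 47.3% of its 6-day value and the neuronal sum at 13.7%. The beta sum was higher at 0 than at 10 days, and the neuronal sum higher at 10 than at 0 days. Of the 7 neuronal markers only Map2 had the order of the beta sum. It stood at 0.964, 1.82, 4.74 and 1.02 FPKM from the control to 10 days. Of the neural progenitor markers 2 of 8 were in the table, and their sum at 0 days was at 40.1% of its 6-day value, with Dach1 highest at 0 days (15.1 FPKM) and Fabp7 at 6 days (35.9 FPKM). The part of neuronal or progenitor content in the beta levels was not tested.

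**Figure D5:**
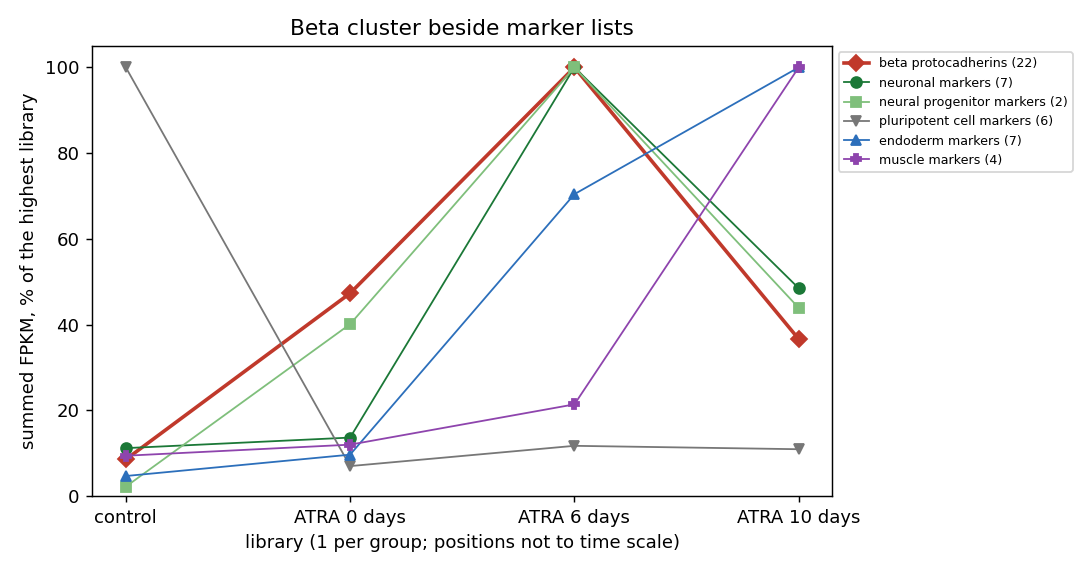
Summed FPKM of the beta members and of 5 marker lists in each library, as a percentage of the highest library of each list (numbers in the legend are genes in the table). The sums of the beta members, of the neuronal and of the neural progenitor markers are highest at 6 days, and the sums of the endoderm and muscle markers at 10 days. Single markers can differ from their sum.

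Markers of most other cell types had other profiles. The summed level of 7 endoderm markers was 160 FPKM in the control, 329 FPKM at 0 days, 2391 FPKM at 6 days and 3395 FPKM at 10 days. Sparc made up most of it, at 1862 FPKM at 6 days and 2711 FPKM at 10 days. Of the 7, 5 were highest at 10 days and 2, Dab2 and Gata4, at 6 days. At 10 days against 6 days 0 of the 7 were called. The sums of 4 muscle, 7 epithelial, 5 mesenchymal and 3 trophoblast markers were all highest at 10 days as well, where the beta sum was at 36.7% of its 6-day value. Glial markers were mixed. Their sum was 14.5 FPKM at 6 days and 16.3 FPKM at 10 days, and of the 7, 3 were highest at 6 days, 3 at 10 days and 1 in the control. The 6-day library thus held summed endoderm, muscle, epithelial, mesenchymal and trophoblast markers above their control levels together with the highest beta levels. The muscle sum rested on Tnnc1, at 45.7 FPKM at 6 days and 1.54 FPKM in the control. Myh6 was also higher at 6 days, at 0.235 against 0.0620 FPKM. Myl7 and Des were lower at 6 days than in the control, at 8.57 against 12.7 FPKM and 10.6 against 14.4 FPKM. Which cells expressed the beta genes was not tested.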

How the data were processed

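The authors deposited FPKM values, per the file headers, in a column for each of the 4 libraries. The submitters' processing notes name Trimmomatic, TopHat, Cufflinks and the mm10 build. Tool versions, the annotation and strand use: not given in the sources used here. Per the labels' protocols, cDNA was made from total RNA with oligo(dT) primers. FPKM divides by transcript length, so an annotated length that is too long lowers a member.

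Of 10201 rows, 177 symbols had more than 1 row, and these were summed. The worth of 1 fragment was the median of FPKM times kilobases between 0.02 and 0.05 over 1396 genes with 1 GENCODE transcript of 800 bases or more. Member lengths came from RefSeq on GRCm38.p6, the same assembly as mm10, with all 22 members matched. Differences of log2(FPKM + 0.1) were computed for the 6346 symbols whose highest library reached 0.5 FPKM, and called at 2-fold. The lower pseudocount and filter suit the low levels of the members. Neither is a test. The calling step was run on simulated libraries with counting error only, for symbols that passed the filter, which says nothing of the spread between cultures or of the counts without the filter. The members and lists were chosen with earlier results of these data known. Named members were the top members holding 50% of the summed mean, those at 1 FPKM or more, and, chosen after their values were seen, exceptions to the pattern. Sequences of these genes are not printed here. Software: matplotlib 3.10.9, scipy 1.17.1, pandas 2.3.3, numpy 2.4.6 and Python 3.11.15.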

Additional observations from a re-analysis of the deposited data

How the results depend on the processing

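No paired analysis was possible because each group has 1 library, and no library could be left out for the same reason. The alternatives for the alpha and gamma clusters were not run, since the table used here gave no member. Counts of members depended on the pseudocount and the filter. With a pseudocount of 1, 0 members were called in each of the 5 comparisons, and with 0.5 there were 0 in each except 6 days against the control, where 2 were called higher. Without the filter the members called were 4 for 0 days against the control, 4 for 6 against 0 days, 5 lower for 10 against 6 days, 12 for 6 days against the control and 4 for 10 days against the control. With a filter at 1 FPKM only Pcdhb22 entered, giving 1, 0, 0, 1 and 1 in the same order. At 4-fold the counts were 0 for each comparison but 6 days against the control, where 2 were called higher. Both causes lie in the construction of the alternatives: a larger pseudocount shrinks differences at these levels, and a filter sets how many members enter. At a threshold of 0.1 FPKM, 7, 15 and 5 members passed at 0, 6 and 10 days, and at 1 FPKM 0, 1 and 0. The log2 difference of the summed FPKM kept its direction in each alternative. For 6 against 0 days it was 1.05, and 0.82 with a pseudocount of 1 and 0.93 with 0.5, both short of 2-fold. For 10 days against the control it was 1.85, and 0.95 with a pseudocount of 1. Upper-quartile scaling moved all genes by 0.16 for 6 days against the control and 0.13 for 0 days against the control, and then 22 members were higher at 6 days than in the control, Pcdhb8 included, and 19 were highest at 6 days. Leaving out Pcdhb22 and summing estimated fragments, both chosen after seeing the data, changed no direction and no side of 2-fold. Depth limits single members most, since 41 of 88 values rest on fewer than 3 estimated fragments before rounding.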
